A study of Mus musculus with 7 samples.

Results

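The 9 genes described here carry out fatty acid and retinol handling in enterocytes: Cd36, Slc27a4, Acsl5, Fabp1, Fabp2, Scp2, Bco1, Rbp2 and Lrat. They were taken by symbol from the deposited table of gene expression, in which each had 1 row, so that 9 of 46671 genes were followed in all 7 libraries. The libraries came from intestinal epithelium of BALB/C mice aged 8 weeks. In 4 libraries (cKO) the gene Stk24, which encodes the protein kinase MST3, was knocked out in intestinal epithelial cells, and 3 libraries (Ctrl) had the WT genotype. The sources used here do not give the driver of the knockout. The treatment label says that no drug was given, whereas the design text names AOM and DSS, a carcinogen and an agent that induces colitis; the labels are the same for both groups. The design text speaks of littermates, but no label states that each library is a separate mouse, so p-values measure only the spread between these libraries.

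Dietary fat reaches the enterocyte as fatty acids and monoglycerides. Long-chain fatty acids enter across the brush border, are joined to coenzyme A by acyl-CoA synthetases, travel bound to small cytosolic proteins, and are built back into triglyceride for export in chylomicrons. Vitamin A takes a parallel route: β-carotene is cleaved to retinal, retinal and retinol are held by a cytosolic retinol-binding protein of the same family as the fatty acid binding proteins, and retinol is esterified to fatty acids and leaves in the same chylomicrons. These genes are mostly high in the absorbing cells of the small intestine and low in colon.

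Values are FPKM as deposited, fragments per kilobase of gene divided by a library size. That size was not the read total but 1.08, 1.10, 0.991 and 0.891 times it in cKO replicates 1 to 4, and 0.987, 0.992 and 1.03 times it in Ctrl replicates 1 to 3. The libraries held 14659708 to 19659622 reads, and 3 reads on a gene of 1 kb corresponded to 0.155 to 0.216 FPKM. Stk24 stood at 3.34 ± 0.435 FPKM in cKO and 19.9 ± 0.926 FPKM in Ctrl (means ± SD here are over n = 4 and n = 3). It fell by 2.42 on the log2(FPKM + 0.5) scale (limma, adjusted p = 0.00043). The labelled tissue is colorectum. The lactase gene Lct lay at 280 to 523 FPKM, the sucrase gene Sis at 413 to 823 FPKM and Gata4, a transcription factor of proximal small intestine, at 39.9 to 53.8 FPKM over the 7 libraries. Of 12 colon genes listed 11 were matched, and their sum was 261 to 389.6 FPKM in cKO and 249 to 401 FPKM in Ctrl. Car1, Aqp8, Hoxb13 and Saa1 did not exceed 0.0705, 1.56, 0.304 and 0.656 FPKM in any library, Slc37a2 reached 1.51 FPKM, and Cyp2c55 and Ms4a12 reached 19.1 and 27.5 FPKM. Slc26a3, Car4 and the goblet cell mucin Muc2, which carried most of the sum, reached 57.9, 141 and 225 FPKM. The 7 libraries are called epithelium below, without a region.

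Of the 9 genes, 0 were called by limma at an adjusted p under 0.05, and 0 by voom on the recovered reads. Over all 13057 tested genes limma called 4, or 0.0306%. At an unadjusted p under 0.05, 1 of the 9 was named by limma, Fabp1, which was lower, against 8.97% of all tested genes (4.73% lower, 4.24% higher). Fabp1 was also the 1 gene of the 9 whose cKO and Ctrl libraries did not overlap, against 10.1% of all tested genes (4.51% lower, 5.62% higher). The difference was below 0 for 6 of the 9 genes, against 51.3% of all tested genes. The median was -0.06 on the log2(FPKM + 0.5) scale, against -0.01 over all tested genes. With TPM 4 of the 9 lay below 0, against 38.6% of all tested genes. After centring on epithelial markers 4 of the 9 did, against 33.1%. Fabp1 stood at 45.6% of the Ctrl mean in cKO libraries, and the other 8 genes lay between -0.31 and 0.33 on the log2 scale.

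**Figure D1:**
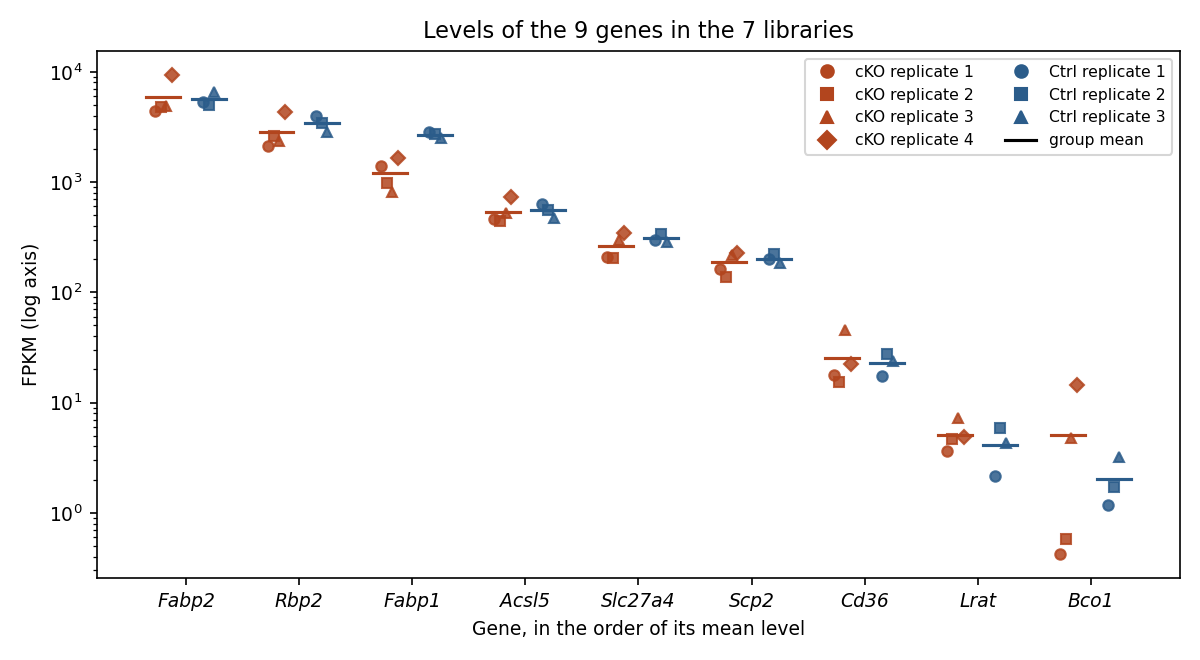
FPKM of the 9 genes in each library (log axis), cKO points left of Ctrl points within each gene, with the group means as short lines. Only Fabp1 has its 4 cKO points, at 819 to 1658 FPKM, wholly below its 3 Ctrl points, at 2500 to 2815 FPKM; Bco1 shows the widest scatter, 0.424 to 14.4 FPKM within cKO.

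The genes covered more than 3 orders of magnitude, and their order was nearly the same in every library. Fabp2 was highest, followed by Rbp2, Fabp1, Acsl5, Slc27a4, Scp2, Cd36, Lrat and Bco1. Each gene exceeded the next in 7 of 7 libraries, except that Lrat exceeded Bco1 in 6 of 7, the exception being cKO replicate 4. The ranges over the 7 libraries overlapped for Rbp2 and Fabp1, for Slc27a4 and Scp2, and for Lrat and Bco1, so those neighbours were ordered within libraries but not between them. Together the 9 genes took 1.004%, 1.07%, 1.04% and 1.56% of the reads in cKO replicates 1 to 4, and 1.31%, 1.25% and 1.32% in Ctrl replicates 1 to 3. The share in cKO replicate 4 was above every Ctrl library and the other 3 cKO shares were below every Ctrl library.

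Uptake at the cell surface was represented by Cd36 and Slc27a4. Cd36 encodes a scavenger receptor that binds long-chain fatty acids and oxidised lipoproteins and is also made by endothelium, macrophages and adipocytes. It lies on chromosome 5 at 17986688 to 18093957 (minus strand; positions of genes here are those of the deposited table, build GRCm39). Cd36 measured 17.8, 15.4, 45.4 and 22.2 FPKM in cKO replicates 1 to 4, against 17.3, 27.4 and 23.7 FPKM in Ctrl replicates 1 to 3. The groups overlapped, and cKO replicate 3 stood well above every other library. The means were 25.2 ± 13.8 FPKM in cKO and 22.8 ± 5.08 FPKM in Ctrl, a difference of 0.03 (SE 0.35; limma, adjusted p = 0.984; exact permutation p = 1.0, 2-sided). Without cKO replicate 3 the difference was -0.29. Summed endothelial markers lay at 2.34 to 3.11 FPKM in cKO and 2.21 to 3.497 FPKM in Ctrl, and summed macrophage and dendritic markers at 8.21 to 13.6 FPKM in cKO and 8.50 to 15.4 FPKM in Ctrl. The summed adipocyte markers were 55.6 to 115 FPKM in cKO and 87.5 to 102 FPKM in Ctrl, carried by Cidec and Lipe, while the defining adipocyte genes Adipoq, Lep and Cfd were at 0 in all 7 libraries. The part of these cells in the Cd36 values was not tested.

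Slc27a4 encodes FATP4, the main fatty acid transport protein of the enterocyte, which also has acyl-CoA synthetase activity (chromosome 2, 29692646 to 29707534, plus strand). It measured 211, 203, 301 and 342 FPKM in cKO replicates 1 to 4, against 301, 338 and 289 FPKM in Ctrl replicates 1 to 3. The lower values of cKO replicates 1 and 2 lay below all Ctrl libraries and the other two cKO libraries lay among or above them. The difference was -0.26 (SE 0.21; limma, adjusted p = 0.742), and ran from -0.39 without cKO replicate 4 to -0.16 and -0.14 without cKO replicates 1 and 2. Acsl5, an acyl-CoA synthetase abundant in intestinal mucosa (chromosome 19, 55240298 to 55285060, plus strand), measured 462, 447, 522 and 730.0 FPKM in cKO, against 633, 552 and 477 FPKM in Ctrl. Again cKO replicates 1 and 2 were lowest and cKO replicate 4 highest, so that Ctrl values fell inside the cKO range, and the difference was -0.06 (SE 0.22; limma, adjusted p = 0.958). Its sign was positive with TPM, with quantile normalization and after centring on epithelial markers, at 0.03, 0.04 and 0.06.

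Of the 3 genes for cytosolic carriers, Fabp1, Fabp2 and Scp2, Fabp1 had groups that did not overlap. It encodes the fatty acid binding protein also known from liver, which binds fatty acids, acyl-CoA and other hydrophobic ligands and is abundant in small intestine as well. Fabp2, the intestinal type, is restricted to intestinal epithelium and binds long-chain fatty acids. Fabp1 lies on chromosome 6 at 71176863 to 71182018 and Fabp2 on chromosome 3 at 122688721 to 122693155, both on the plus strand. The sequences immediately before their start sites are shown because both are enterocyte genes of 1 family, and the groups did not overlap for Fabp1 and overlapped for Fabp2. They are RefSeq promoter sequences of build GRCm38.p6, 5′ to 3′ on the coding strand, chr6:71199629-71199878 (+) for Fabp1 and chr3:122894822-122895071 (+) for Fabp2. Capitals mark matches to a direct repeat, AGGNCA followed after 1 base by AGGNCA (the kind of element bound by nuclear receptors such as PPAR with RXR, or HNF4) and to the TATA box TATAAA, on either strand.
Fabp1: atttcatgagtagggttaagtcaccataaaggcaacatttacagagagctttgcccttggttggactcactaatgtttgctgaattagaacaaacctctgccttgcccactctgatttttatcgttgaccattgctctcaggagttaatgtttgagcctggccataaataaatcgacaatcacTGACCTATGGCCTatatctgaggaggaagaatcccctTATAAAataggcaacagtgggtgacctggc
Fabp2: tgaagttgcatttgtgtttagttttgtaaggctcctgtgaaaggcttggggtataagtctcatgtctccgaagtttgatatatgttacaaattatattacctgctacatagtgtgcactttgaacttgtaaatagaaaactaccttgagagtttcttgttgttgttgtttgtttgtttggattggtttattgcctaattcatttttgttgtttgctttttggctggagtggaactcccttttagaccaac
The repeat in Fabp1 lay 67 to 55 bases before the RefSeq start site, on the minus strand, and its TATA box 30 to 25 bases before it. Fabp2 held a match to neither motif in these 250 bases. Any link of these motifs to the levels of the genes was not tested. The repeat was found in 0.338% of 32851 RefSeq promoter windows of the same length and the TATA box in 12.4%. Matches of CDX sites (TTTATNG), present in 9.81% of windows, occurred in Fabp1, Fabp2, Scp2, Bco1 and Rbp2, and in Rbp2 the match overlapped a TATA match. A GATA site (AGATAA or TGATAA; 16.6% of windows) occurred in Rbp2 among the 9 genes, overlapping the other TATA match by 1 base, and neither the HNF4 site CAAAGTCCA (0.384%) nor the HNF1 site, GTTAAT followed after 2 bases by TTAAC (0.0335%), occurred in any.

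Fabp1 measured 1407, 989.8, 819 and 1658 FPKM in cKO replicates 1 to 4, against 2815, 2709 and 2500 FPKM in Ctrl replicates 1 to 3. Every cKO library lay below every Ctrl library, with cKO replicate 3 lowest and cKO replicate 4 nearest to Ctrl. The means were 1219 ± 383 FPKM in cKO and 2674 ± 160 FPKM in Ctrl. The difference of the mean log2(FPKM + 0.5) values was -1.19 (SE 0.29, 95% interval -1.85 to -0.53). Fabp1 ranked number 86 of 13057 genes by p in limma, with an unadjusted p = 0.0032 and an adjusted p = 0.473, so it did not pass the threshold over the whole table. The exact 2-sided permutation p was 0.0571, the smallest that 35 splits of 7 libraries can give. The difference stayed between -1.35 and -0.99 under 19 alternatives in filter, scaling, model or libraries left out, with adjusted p between 0.269 and 0.808. The value rests on 6093 to 27972 reads per library. In bulk tissue, fewer cells of a type and less RNA per cell cannot be told apart.

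The gene is short, 512 bases in the table. Among 1790 tested genes of at most 1000 bases, 64.8% lay below 0, with a median of -0.16. After a trend on gene length was removed Fabp1 stood at -0.99, with an adjusted p = 0.583 in limma. Markers of enterocytes and villus deviated from the Ctrl mean by an average of -0.41, -0.33, 0.17 and 0.36 log2 units in cKO replicates 1 to 4, and Fabp1 by -0.92, -1.43, -1.70 and -0.69. Crypt and proliferation markers stood at 0.49, 0.35, -0.26 and -0.28 in the same order, and markers of epithelium at -0.12, -0.31, -0.17 and 0.14. The part of these in the Fabp1 values was not tested.

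Fabp2 measured 4366, 4776, 4869 and 9405 FPKM in cKO replicates 1 to 4, against 5269, 5047 and 6501 FPKM in Ctrl replicates 1 to 3. The first 3 cKO libraries lay just below all Ctrl libraries and cKO replicate 4 well above them. The means were 5854 ± 2378 FPKM in cKO and 5605 ± 783 FPKM in Ctrl, with a log2 difference of -0.003 and a 95% interval of -0.84 to 0.83 (limma, adjusted p = 0.999; exact permutation p = 0.914). The interval includes changes of nearly 1 log2 unit in either direction, and the sign was positive under 5 alternatives in scaling or model, TPM, reads, epithelial centring, length trend and voom.

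Since both genes come from the same library, their ratio does not depend on the scaling between libraries. Fabp1 relative to Fabp2 was 0.322, 0.207, 0.168 and 0.176 in cKO replicates 1 to 4, against 0.534, 0.537 and 0.385 in Ctrl replicates 1 to 3. The groups did not overlap, and the highest cKO ratio, in replicate 1, was below the lowest Ctrl ratio, in replicate 3. The mean ratio was 0.219 ± 0.0712 in cKO and 0.485 ± 0.0871 in Ctrl. The mean of the log2 ratios differed by -1.18 (SE 0.29; exact 2-sided permutation p = 0.0571, the smallest the design allows). The ratio in cKO replicate 4, whose Fabp1 was the highest of the cKO libraries, was close to that in cKO replicate 3, with Fabp2 high in it. This ratio uses the Fabp1 values already given and is no second piece of evidence.

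**Figure D2:**
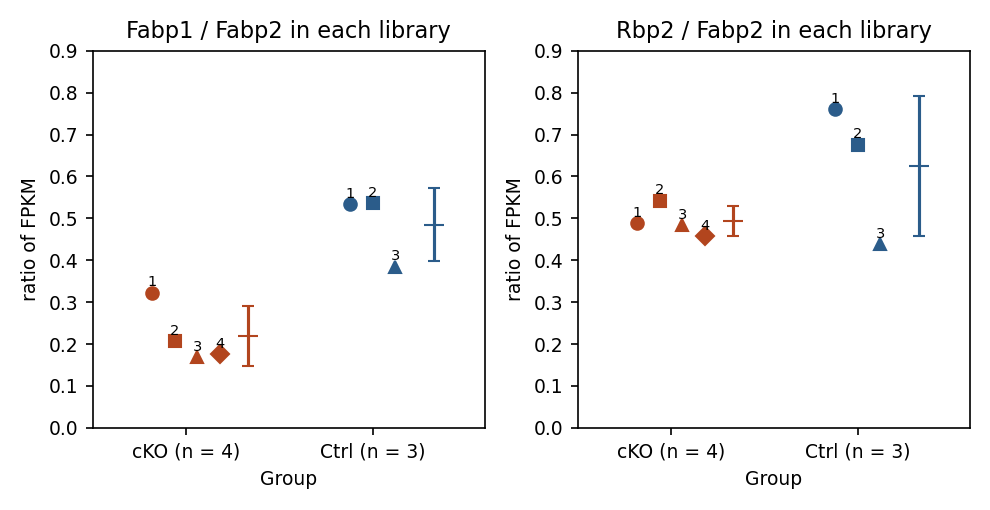
Fabp1 relative to Fabp2 and Rbp2 relative to Fabp2 within each library (FPKM over FPKM, no unit), cKO left of Ctrl, with replicate numbers beside the points and error bars of mean ± SD. For Fabp1 the 4 cKO ratios, 0.168 to 0.322, lie below the 3 Ctrl ratios, 0.385 to 0.537; for Rbp2 the ratios of the groups overlap.

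Scp2 encodes sterol carrier protein, which moves sterols and fatty acyl-CoA, and, from another promoter, a peroxisomal thiolase that contains it (chromosome 4, 107901027 to 108002168, minus strand); the table gives 1 value for both products. It measured 162, 139, 218 and 227 FPKM in cKO, against 200.04, 221 and 186 FPKM in Ctrl. The libraries ranked much as for Slc27a4, low in cKO replicates 1 and 2 and high in cKO replicate 4. The difference was -0.14 (SE 0.20; limma, adjusted p = 0.859). It was -0.25 and -0.23 without cKO replicates 4 and 3, and -0.09, -0.01 and -0.08 without cKO replicates 1 and 2 and Ctrl replicate 2.

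**Figure D3:**
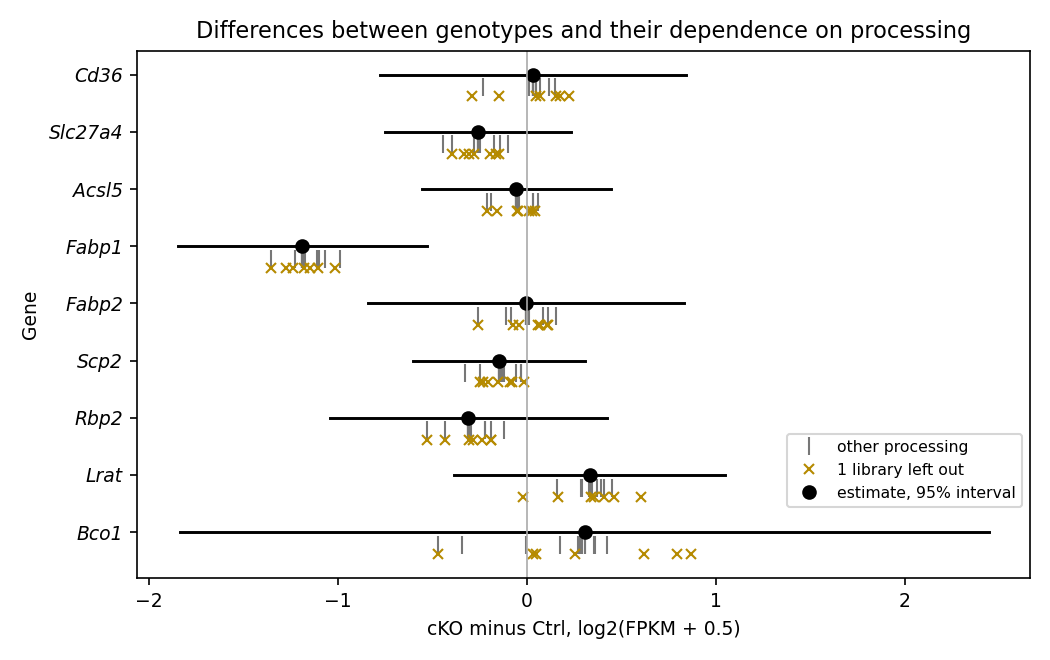
Difference of each gene, cKO minus Ctrl, on the log2(FPKM + 0.5) scale, with 95% intervals from limma that are not adjusted for the number of genes. The interval of Fabp1 runs from -1.85 to -0.53 and the other 8 include 0, with Bco1 widest at -1.83 to 2.45.

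On the retinoid side, Bco1 encodes the oxygenase that cleaves β-carotene to retinal, Rbp2 the cellular retinol-binding protein of the enterocyte, and Lrat the acyltransferase that makes retinyl esters. Bco1 lies on chromosome 8 at 117822590 to 117860459 and Rbp2 on chromosome 9 at 98372590 to 98391824, both on the plus strand, and Lrat on chromosome 3 at 82799889 to 82811281 on the minus strand. The sequences before the starts of Bco1 and Rbp2 are shown because Bco1 was the most variable of the 9 genes and Rbp2 belongs to the protein family of Fabp1 and Fabp2. They are RefSeq sequences of build GRCm38.p6, chr8:117095615-117095850 (+) for Bco1 and chr9:98490287-98490536 (+) for Rbp2, marked as for Fabp1. The Bco1 sequence ends 14 bases short of the start site used for the window, where the RefSeq gene begins.
Bco1: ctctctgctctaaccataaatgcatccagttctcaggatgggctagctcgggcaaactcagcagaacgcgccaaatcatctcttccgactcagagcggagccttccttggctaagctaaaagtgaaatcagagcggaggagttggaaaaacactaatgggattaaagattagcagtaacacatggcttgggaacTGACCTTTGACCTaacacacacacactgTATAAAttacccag
Rbp2: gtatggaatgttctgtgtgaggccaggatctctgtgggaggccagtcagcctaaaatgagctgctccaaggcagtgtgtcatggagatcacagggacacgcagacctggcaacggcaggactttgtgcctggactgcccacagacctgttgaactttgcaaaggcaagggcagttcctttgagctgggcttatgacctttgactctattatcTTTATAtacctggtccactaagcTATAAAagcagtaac
Bco1 held the stricter repeat, AGGTCA followed after 1 base by AGGTCA, found in 11 of 32851 windows (0.0335%), at 56 to 44 bases before its start site on the minus strand, with a TATA box at 28 to 23 bases. Rbp2 held TATAAA on the plus strand at 15 to 10 bases and on the minus strand at 38 to 33 bases, and no match to either form of the repeat. Over the 9 genes the looser repeat occurred in 2, Bco1 and Fabp1, and the TATA box in 3. Here too a link to the levels was not tested. For Scp2, Cd36 and Acsl5 the RefSeq window begins at a start site inside the gene and not at its outermost one.

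Bco1 measured 0.424, 0.573, 4.74 and 14.4 FPKM in cKO replicates 1 to 4, against 1.18, 1.73 and 3.19 FPKM in Ctrl replicates 1 to 3. The cKO libraries lay on both sides of Ctrl, replicates 1 and 2 below every Ctrl library and replicates 3 and 4 above, with a 34.0-fold range within cKO. These values rest on 32, 41, 292 and 851 reads in cKO, against 97, 123 and 219 reads in Ctrl. The difference was 0.31 (SE 0.93; limma, adjusted p = 0.941; exact permutation p = 0.857), and without cKO replicate 4 it was -0.47. The voom fit on the recovered reads gave -0.0050.

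Rbp2 measured 2136, 2589.7, 2354 and 4303 FPKM in cKO replicates 1 to 4, against 4006, 3411 and 2847 FPKM in Ctrl replicates 1 to 3. As for Fabp2, 3 cKO libraries lay below all Ctrl libraries and cKO replicate 4 above them. The means were 2846 ± 989 FPKM in cKO and 3422 ± 579.6 FPKM in Ctrl, with a difference of -0.31 (SE 0.32, 95% interval -1.04 to 0.42; limma, adjusted p = 0.794). It was -0.53 without cKO replicate 4, -0.19 without cKO replicate 1 or Ctrl replicate 1, and -0.12 with the length trend removed. Relative to Fabp2, Rbp2 was 0.489, 0.542, 0.483 and 0.458 in cKO, against 0.760, 0.676 and 0.438 in Ctrl, and the groups overlapped through Ctrl replicate 3 (log2 difference -0.31, SE 0.21; exact permutation p = 0.286). The log2 difference of this ratio was -0.54 without Ctrl replicate 3 and -0.14 without Ctrl replicate 1.

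Lrat measured 3.66, 4.68, 7.20 and 4.86 FPKM in cKO replicates 1 to 4, against 2.17, 5.84 and 4.32 FPKM in Ctrl replicates 1 to 3. The lowest library was Ctrl replicate 1 and the highest cKO replicate 3, with the groups overlapping. The difference was 0.33 (SE 0.31; limma, adjusted p = 0.766), and without Ctrl replicate 1 it was -0.02.

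**Figure D4:**
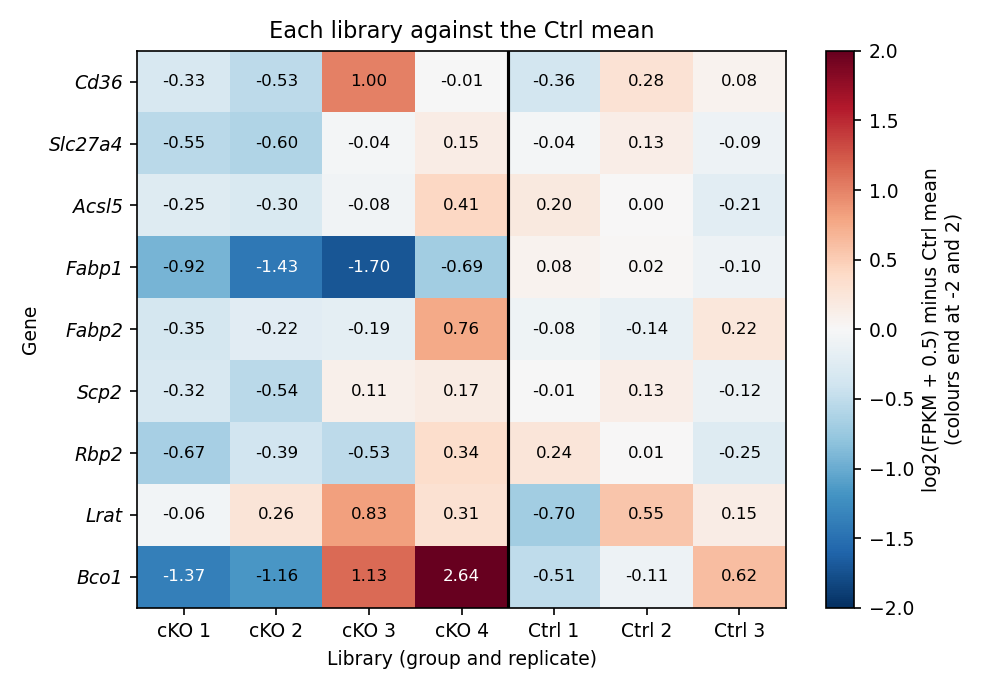
Deviation of each gene from its Ctrl mean, log2(FPKM + 0.5), for the 4 cKO libraries left of the 3 Ctrl libraries. Fabp1 is the row in which all 4 cKO libraries are clearly low, at -0.69 to -1.70; Bco1 runs from -1.37 to 2.64 across the cKO libraries.

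Among the 4 cKO libraries, 8 of the 9 genes, all but Fabp1, were lowest in replicate 1 or 2, and all 9 were highest in replicate 3 or 4. Of the 9, 0, 1, 4 and 7 stood above their Ctrl mean in cKO replicates 1 to 4, and 3, 7 and 4 in Ctrl replicates 1 to 3. The median deviation was -0.35, -0.53, -0.04 and 0.31 in cKO replicates 1 to 4. With FPKM per recovered read, in place of the deposited library sizes, the medians were -0.25, -0.39, -0.05 and 0.15, and 1, 1, 4 and 5 of the 9 stood above their Ctrl mean. The enterocyte and villus markers named beside Fabp1 ran in the same order, except that replicates 1 and 2 changed places, and the part of enterocyte content in these values was not tested. By the root mean square difference of centred log2 values over the 7 libraries, the closest pair within the set was Slc27a4 and Scp2, at 0.084, and Bco1 lay over 1.02 from each of the others.

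By the same measure, Fabp1 was compared with 4799 other genes averaging 10 FPKM or more. Symbols starting with Gm and digits or ending in Rik were left out, here and for the genes below. The genes most like Fabp1 across the 7 libraries were H2-T22 at 0.19, Uqcr11 at 0.22 and Edf1 at 0.22. Of these, Uqcr11 and Edf1 are also short, at 436 and 745 bases. The genes most like Scp2 were Cystm1 at 0.03, Tkfc and Abcb10, and those most like Slc27a4 were Cdipt at 0.06, Stk10 and Bcar3. Among the genes most like Acsl5 were Mdh2 at 0.06 and Cox15. Fabp2 was closest to Abhd2 at 0.11, Mertk and S100a11, and Rbp2 to Ndufa11 at 0.13, Ckmt1 and Tnfsf13os. Cd36 was closest to Vnn1 at 0.13, Slc17a4 and Muc3, and Lrat to Rsrp1 at 0.15, Clk1 and Slc5a12. For Bco1 the nearest, Fos, was 0.67 away, followed by Sgk1 and Rhob. These distances describe 7 libraries and carry no test.

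The surrounding pathway genes showed no change past the threshold in limma: 0 of 10 other tested genes for fatty acid binding, transport and acyl-CoA synthesis passed, as did 0 of 16 for triglyceride resynthesis and lipid droplets, 0 of 21 for carotenoid and retinoid metabolism, 0 of 4 retinoid receptors, 0 of 15 for peroxisomal oxidation and 0 of 20 transcription factors. At an unadjusted p under 0.05 in limma there were 0 in each of the first 2 lists. The retinoid metabolism list had 4, 3 lower and 1 higher, and each of the last 3 lists had 1, which was lower. Over all tested genes the share was 8.97% (4.73% lower, 4.24% higher). Groups did not overlap, with cKO lower, for 0, 0, 2, 2, 2 and 1 genes of the lists in that order, and with cKO higher for 0. Over all tested genes 10.1% did not overlap (4.51% lower, 5.62% higher). The genes named below include those with the 3 smallest p of each list. The medians were -0.03, -0.17, -0.14, -0.08, -0.11 and -0.05 in the order of the lists, against -0.01 over all tested genes. Rescaling alone moved the median of all genes to as much as 0.11, with centring on epithelial markers.

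Beside the fatty acid carriers, Dbi, the acyl-CoA binding protein, was the highest at 348 ± 96.9 FPKM in cKO and 398 ± 60.8 FPKM in Ctrl, a difference of -0.23 (limma, adjusted p = 0.804). Fabp5, the epidermal type, stood at 4.39 ± 1.38 FPKM in cKO and 5.53 ± 0.984 FPKM in Ctrl, far under Fabp1 and Fabp2 per kilobase. The transport protein genes Slc27a3 and Slc27a1 stood at 0.566 ± 0.198 and 2.37 ± 0.280 FPKM in cKO and 0.969 ± 0.359 and 2.64 ± 0.227 FPKM in Ctrl, differences of -0.45 and -0.13 (limma, adjusted p = 0.637 and 0.794). Dgat1, which catalyses the last step of triglyceride synthesis, stood at 307 ± 55.8 FPKM in cKO and 386 ± 51.6 FPKM in Ctrl, a difference of -0.34 (limma, adjusted p = 0.630). The lipid droplet coat genes Plin3 and Plin2 differed by -0.40 and -0.22, and neither passed.

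Around Scp2, the peroxisomal thiolase Acaa1b stood at 7.85 ± 2.05 FPKM in cKO and 16.9 ± 1.88 FPKM in Ctrl, and the groups did not overlap. Its difference of -1.09 (SE 0.20; limma, adjusted p = 0.370) was close in size to that of Fabp1 and did not pass either. Acaa1a, its more abundant relative, stood at 184 ± 26.9 FPKM in cKO and 228 ± 52.3 FPKM in Ctrl with overlap, and because the 2 sequences are near copies, the division of reads between them is uncertain. Pex5, the receptor that imports peroxisomal proteins, differed by -0.22 (limma, adjusted p = 0.578), with no overlap.

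Among retinoid genes, Adh1, an alcohol dehydrogenase that oxidises retinol, was the highest at 400.2 ± 92.5 FPKM in cKO and 497 ± 51.7 FPKM in Ctrl. The dehydrogenase genes Dhrs4 and Rdh5 did not overlap between groups and were lower in cKO by -0.35 and -0.52, at 40.5 ± 2.05 FPKM in cKO and 51.7 ± 1.57 FPKM in Ctrl for Dhrs4 and 2.34 ± 0.462 FPKM in cKO and 3.55 ± 0.237 FPKM in Ctrl for Rdh5. Their adjusted p-values in limma were 0.493 and 0.511. Dhrs3, which reduces retinal to retinol, stood at 8.91 ± 1.01 FPKM in cKO and 11.2 ± 1.13 FPKM in Ctrl with overlap, a difference of -0.31 (limma, adjusted p = 0.542). The receptor gene Rxrb, a partner of retinoic acid receptors and PPARs, stood at 13.8 ± 2.35 FPKM in cKO and 18.6 ± 0.680 FPKM in Ctrl without overlap (limma, adjusted p = 0.516). Rxra, the most abundant of the receptors, also had no overlap, at 29.2 ± 2.29 FPKM in cKO and 31.6 ± 0.678 FPKM in Ctrl, a difference of -0.12 (limma, adjusted p = 0.753). Rara stood at 8.19 ± 0.734 FPKM in cKO and 8.48 ± 0.602 FPKM in Ctrl, with overlap. Isx, chosen after its values were seen because in mouse intestine it represses Bco1, stood at 59.3 ± 5.52 FPKM in cKO and 68.7 ± 9.02 FPKM in Ctrl, a difference of -0.21 (limma, adjusted p = 0.672). Plb1, a brush border phospholipase that also splits retinyl esters, was the 1 gene of the list that was higher at an unadjusted p under 0.05, and is named after its values were seen. It stood at 23.2 ± 13.1 FPKM in cKO and 10.1 ± 4.86 FPKM in Ctrl with overlap, a difference of 1.09 (limma, adjusted p = 0.542).

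Of the transcription factors, Creb3l3, a factor of lipid absorption genes, was the highest at 225 ± 62.1 FPKM in cKO and 286 ± 40.2 FPKM in Ctrl. Nr2f6, an orphan nuclear receptor, differed by -0.33, and Nr5a2 and Hnf4g, nuclear receptors of intestinal epithelium, by 0.24 and 0.30, with adjusted p-values in limma between 0.541 and 0.646 for the 4. Reads of Fabp2, Acsl5, Scp2 and Lrat could include reads of genes on the opposite strand that overlap them, since the sources used here do not state whether counting used strand. Those partners did not exceed 1.04 FPKM in any library.

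**Figure D5:**
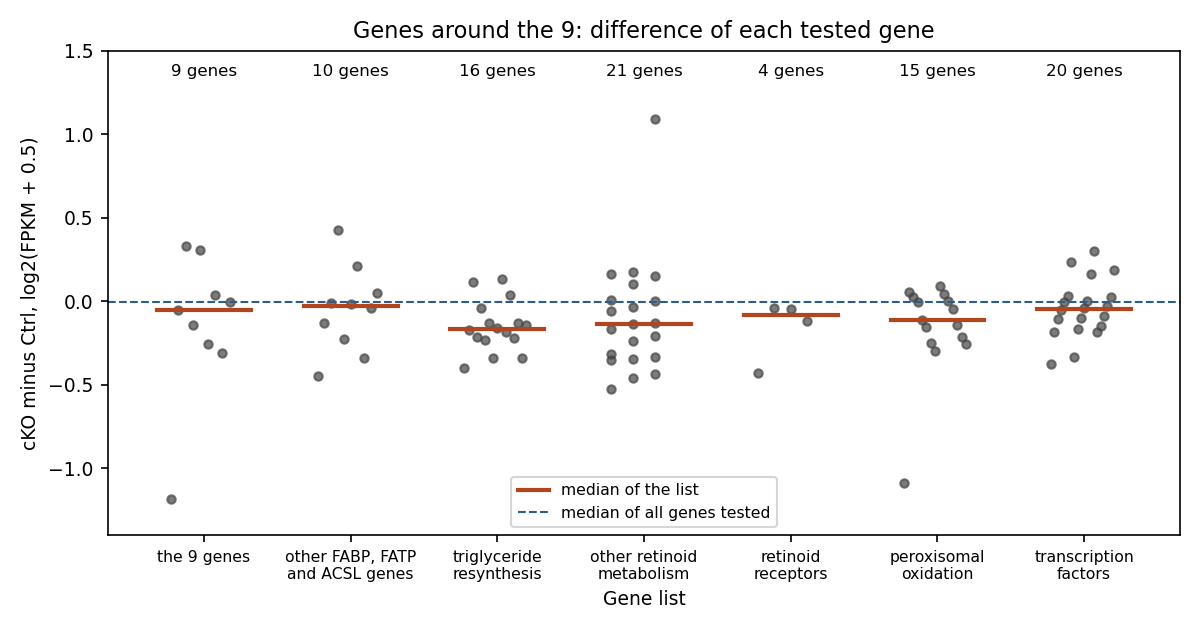
Difference of every tested gene, cKO minus Ctrl on the log2(FPKM + 0.5) scale, in the 9 genes and in 6 lists around them, with the list median as a solid line and the median of all tested genes as a dashed line. The solid lines lie between -0.17 and -0.03, and the points farthest below are Fabp1 at -1.19 and Acaa1b at -1.09.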

How the data were processed

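RNA-seq of 7 libraries (4 cKO, 3 Ctrl) was deposited as 1 table of FPKM per gene, with gene lengths and GRCm39 coordinates. Per the submitters' processing notes HISAT2 was the aligner; the sources used here do not give its version, the counter, the strand setting or the annotation. Deposited FPKM times length was whole reads of 1 step per library in 100% of values (within 0.01), so reads were recovered. Depth is 14659708 to 19659622 reads, and the precision of low genes is limited by it.

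The 13057 genes averaging 0.5 FPKM or more were tested on log2(FPKM + 0.5) with limma 3.58.1 (R 4.3.3; moderated, with trend; 2-sided; Benjamini-Hochberg over all of them; threshold 0.05). Fold changes are on that scale, which understates low genes. Single genes also had an exact permutation test over 35 splits. The fit was tested on simulated data. Members and lists were chosen with earlier results of these data known. Named are the 9 genes, Stk24, and in each pathway list the 3 tested genes with the smallest p plus the most abundant; in marker lists the most abundant, of which those bearing on a result are printed; other marker genes (the regional genes, and adipocyte genes beside Cd36), Isx and Plb1 are outside this rule. For each of the 9, the 3 most alike genes are also named; 1 of these and 1 colon gene are not reported here. Motifs were searched on both strands of the 250 bases before RefSeq starts (GRCm38.p6).

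Alternatives tried were TPM, a pseudocount of 0.1 or 1, a filter at 1 FPKM or none, quantile normalization, FPKM per recovered read, centring on epithelial markers, removal of a length trend, voom on recovered reads, array weights, a replicate block and each library left out.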

Additional observations from a re-analysis of the deposited data

Results flagged for a closer look

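Fabp2 in cKO replicate 4, at 9405 FPKM, stood apart from the other cKO libraries, the nearest of which was at 4869 FPKM; the gap was 0.858 of the range of the 4 libraries, beyond Dixon's 95% limit. Without that library Fabp2 stood at -0.26. Zg16, a secreted lectin of goblet cells, stood at 1628 FPKM in cKO replicate 3, below the nearest other cKO library at 2816 FPKM, with a ratio of 0.919. These were 2 of 49 groups looked at, and chance gives such a gap in about 1 in 20.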

How the results depend on the processing

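None of the 9 genes passed under any of 19 alternatives. Of 171 values of single genes 148 kept their sign and 23 turned. The number of the 9 below 0 ran from 4 to 8 and their median from -0.33 to 0.062. The share of all tested genes below 0 moved as well with TPM, to 38.6%, and with centring on epithelial markers, to 33.1%, where 4 of the 9 lay below 0. It was 51.0% with array weights, where 8 of the 9 did. Without cKO replicate 1 or 2 it was 51.3%, where 4 of the 9 did. Fabp2 (-0.003) stood at 0.085 with TPM, 0.011 per recovered read, 0.11 centred on epithelial markers, 0.15 with the length trend removed and 0.0019 with voom; leaving out 1 library gave -0.26 to 0.11, positive without cKO replicate 1, 2 or 3 or Ctrl replicate 3. Acsl5 (-0.06) stood at 0.033 with TPM, 0.035 with quantile normalization and 0.062 centred on epithelial markers, and -0.21 to 0.046 with 1 library left out, positive without cKO replicate 1 or 2 or Ctrl replicate 1. Bco1 (0.31) stood at -0.0050 with voom and -0.34 with array weights, and -0.47 to 0.87 with 1 library left out, negative without cKO replicate 4. Cd36 (0.03) stood at -0.23 with array weights and -0.29 to 0.22 with 1 library left out, negative without cKO replicate 3 or Ctrl replicate 1; Lrat (0.33) ran from -0.018 without Ctrl replicate 1 to 0.61. Slc27a4 (-0.26) ran from -0.45 with array weights to -0.10 with quantile normalization, and Scp2 (-0.14) from -0.33 with array weights to -0.014 without cKO replicate 2. The causes were not tested. Centring on epithelial markers moved the median of all genes to 0.11, so its values are relative to that shift. The 4 genes that passed in the whole table became 1 with a pseudocount of 0.1, no filter, a filter at 1 FPKM or the length trend removed, 2 with voom, and 1 to 7 with 1 library left out, the 7 without cKO replicate 1; each library moved this count by over 1.5 times.

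The labels give no litter or batch, so whether the replicate numbers pair the libraries is not known. The replicate numbers used here come from the sample titles, and the numbers in the deposited column names are not shared between the groups. Deviations of same-numbered libraries correlated at 0.12, -0.09 and -0.13, and those of differently numbered ones at -0.18 to 0.31. So few libraries cannot exclude a pairing. With the replicate block 0 genes passed, Stk24 stood at -2.44 (limma, adjusted p = 0.137), Bco1 at -0.47 and Fabp1 at -1.35. That fit compares 3 same-numbered pairs, so cKO replicate 4 adds nothing to it. Depth limits Bco1 most, with 32 reads in 1 library. Only 7 libraries were tested, the 95% intervals of the 8 genes of the set other than Fabp1 include 0, and the exact test cannot go below 0.0571.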
